A study of Mus musculus with 6 samples.

Results

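Angptl4 and the lipoprotein lipase system were followed in atrial RNA of mice fed a high-fat diet (HFD) or a control chow. The 8 genes were chosen by name from the 43432 genes of the deposited table: Angptl4, Angptl1, Angptl2, Lpl, Gpihbp1, Lmf1, Vldlr and Lipg. All 8 were found, each in a single row. They were proposed with the comparison of the diets already known, so their levels in the HFD and control mice are given as a description. Calls among them are counted, but nothing is supported with them.

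The libraries were made from right and left atrial tissue of C57/Bl6J wild-type mice, 3 fed the HFD and 3 fed control chow. Feeding began at 6 weeks of age and lasted 10 weeks, and the study calls the groups obese and lean. All are wild type, and the diet is the only labelled difference. The diet labels conflict, however: for all 6 samples the treatment field names the diet opposite to that in the title. Titles, with which the table's columns are named alike, were followed, and every direction given here rests on them. Sex and weight of the sequenced mice were not given in the sources used here, nor whether a library held the atria of 1 mouse or of several, and each library is called a mouse.

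Lipoprotein lipase, encoded by Lpl, hydrolyses the triglycerides of circulating lipoproteins and so supplies the heart with fatty acids, its main fuel. The enzyme is made by cardiomyocytes, folded in the endoplasmic reticulum with the help of lipase maturation factor 1 (Lmf1), and carried to the capillary lumen by GPIHBP1, a protein of capillary endothelial cells. Angiopoietin-like 4 (Angptl4) is a secreted inhibitor of the lipase and is induced by fasting and by fatty acids through PPAR receptors. Vldlr encodes a receptor that takes up triglyceride-rich lipoproteins, and Lipg encodes endothelial lipase, which acts mainly on the phospholipids of high-density lipoproteins. Angptl1 and Angptl2 are secreted relatives of Angptl4 that are not known as lipase inhibitors.

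Levels are normalized counts, that is, reads per gene divided by 1 size factor per sample. Reads on genes ranged from 15874251 to 28971508 per library, and the most deeply sequenced, control mouse 2, also had the largest share of mitochondrial reads (30.7%, against 19.5% to 24.4% elsewhere). A level of 3 reads, taken as the smallest signal, corresponded to 2.05 to 3.41 normalized counts, which covers counting error only. The defining atrial myocyte genes were abundant in every library: Nppa, for atrial natriuretic peptide, had 171702 to 333975 normalized counts and Myl7, for the atrial myosin light chain, 27168 to 60190. HFD mouse 3 stood apart from HFD mice 1 and 2 in these genes.

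Angptl4 is encoded on chromosome 17 (33773750 to 33781575, minus strand; GRCm38, as for all positions given). Its level was 1851, 1418 and 1412 normalized counts in HFD mice 1, 2 and 3 and 80.6, 33.5 and 32.8 in control mice 1, 2 and 3. The lowest HFD mouse was thus far above the highest control mouse. Group means of 1560.3 ± 252 (HFD) and 49.0 ± 27.4 (control; SD, n = 3 each) gave a ratio of 31.9. These levels rested on 1243 to 1843 reads in the HFD mice and on 30 to 72 reads in the control mice, so counting error was small in the first group and larger in the second. Among the 15275 genes tested, the log2 difference of Angptl4 (5.08, SE 0.30) was the largest in the upward direction, and the next was 4.47. By mean level Angptl4 ranked 12366 in the control atria and 1644 in the HFD atria.

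**Figure D1:**
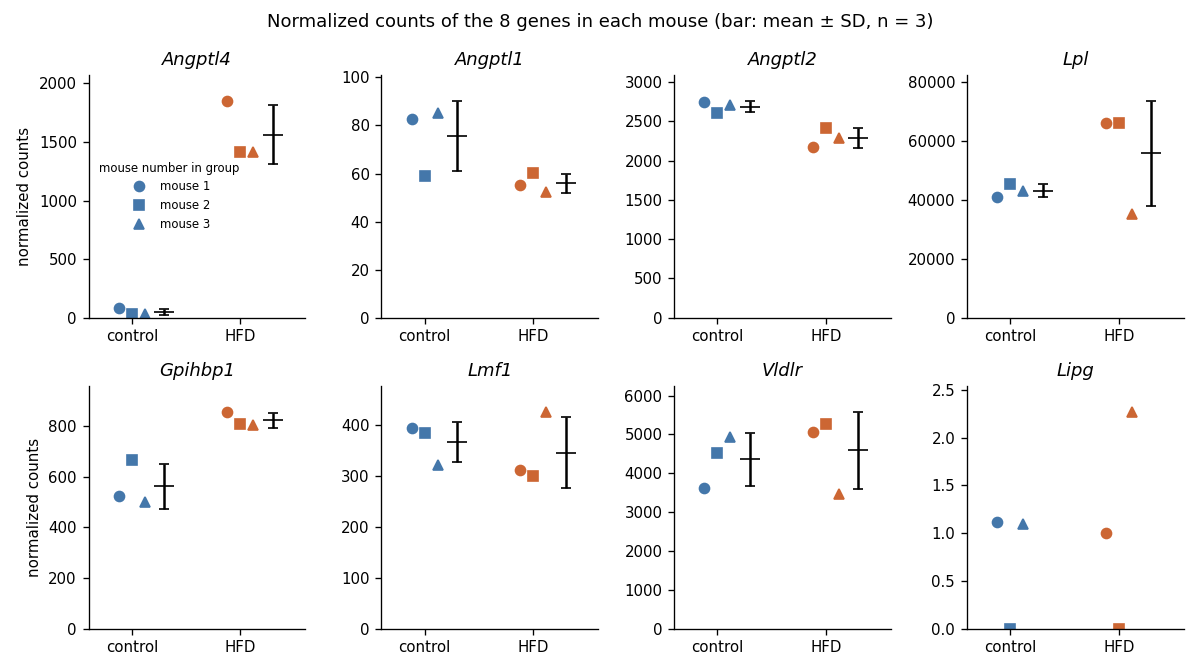
Normalized counts (vertical axes, from 0) of the 8 genes in the 3 control mice (blue) and the 3 HFD mice (orange), with circles, squares and triangles for mice 1, 2 and 3 of each group and bars for the mean ± SD. The groups are apart for Angptl4, Gpihbp1 and Angptl2, HFD mouse 3 is low in Lpl and Vldlr, and Lipg, drawn without a bar, is under 3 reads in every mouse.

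The spread of Angptl4 was uneven between the diets. The coefficient of variation was 16.2% in the HFD mice and 55.9% in the control mice, where control mouse 1 was above the other controls. Control mouse 1 was also the highest control in the summed white adipocyte markers (2747 normalized counts, against 1235 and 568 in control mice 2 and 3) and in Ucp1, for uncoupling protein 1 of brown fat (86.2, against 5.48 and 15.3). Dio2, another brown adipocyte marker, was instead highest in control mouse 2, with 60.5, 84.2 and 41.5 in control mice 1, 2 and 3. Across the diets, Ucp1 had 706, 173 and 745 normalized counts in HFD mice 1, 2 and 3, and the 4 brown adipocyte markers together summed to 616 to 1283 in the HFD mice and to 187 to 330 in the control mice, without overlap. Ucp1 was thus highest in HFD mouse 3, in which Angptl4 was the lowest of the HFD mice, if only just. The 6 white adipocyte markers summed to 3718, 1257 and 1519 in HFD mice 1, 2 and 3, so HFD mouse 1 was the highest HFD mouse in this sum as in Angptl4, and the groups overlapped. Cfd was the largest part of the sum (1851 in HFD mouse 1). Lep, also in the list, was highest in HFD mouse 3, with 9.04, 2.04 and 27.3 in HFD mice 1, 2 and 3. Its log2 difference was -1.41, whereas those of the other 5 were above 0. The part of these markers in the level of Angptl4 was not tested. Without control mouse 1 the log2 difference of Angptl4 was 5.50, and over all 6 fits with 1 mouse left out it ranged from 4.87 to 5.50.

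**Figure D2:**
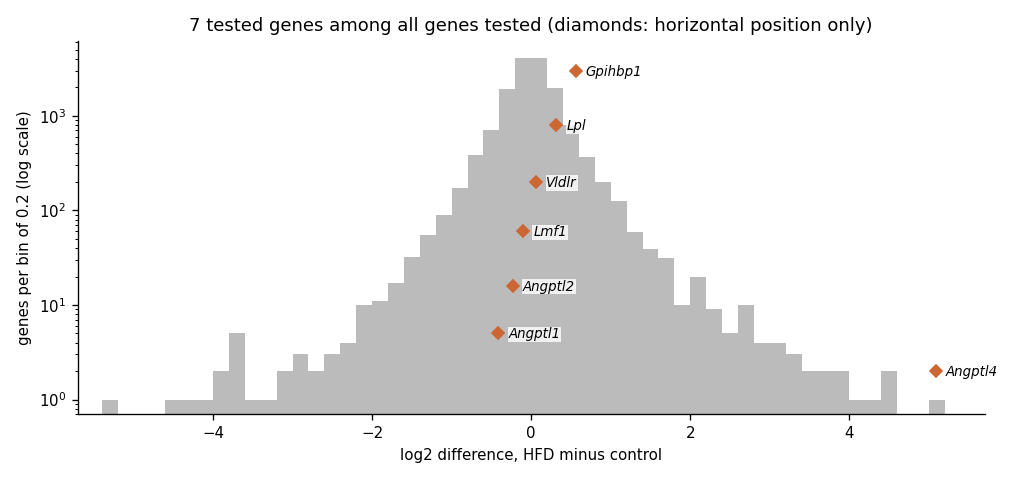
Number of genes (vertical axis, log scale) by log2 difference, HFD minus control (horizontal axis, bins of 0.2), for all 15275 genes tested, with diamonds at the log2 differences of the 7 tested members. The height of a diamond has no meaning. Angptl4 at 5.08 lies at the far right, and the other 6 lie between -0.41 and 0.56.

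A stretch of Angptl4 and one of its target Lpl are shown because furin-like proprotein convertases, which cut after short stretches of basic residues, cleave both proteins and were themselves measured here. Each line gives coding sequence of GENCODE M21 (GRCm38), 5′ to 3′, with capitals on the 4 codons that read arginine, any residue, lysine or arginine, and arginine. The Angptl4 stretch covers chr17:33780546-33780635 on the minus strand, in exon 3 of 7, with the capitals at codons 165 to 168 of 410. The Lpl stretch covers chr8:68896745-68896834 on the plus strand, in exon 6 of 10, with the capitals at codons 321 to 324 of 474.
Angptl4: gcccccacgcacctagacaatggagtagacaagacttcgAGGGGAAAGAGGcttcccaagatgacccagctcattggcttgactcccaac
Lpl: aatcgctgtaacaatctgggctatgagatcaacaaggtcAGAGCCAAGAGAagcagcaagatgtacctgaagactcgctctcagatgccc
The same pattern of codons occurred once in Angptl1 (codons 93 to 96), once in Angptl2 (codons 43 to 46), 2 times in Lipg, and 0 times in Gpihbp1, Lmf1 and Vldlr. A match describes the letters alone, and cleavage was not measured.

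Furin, the prototype of these convertases, had 4076, 4216 and 4004 normalized counts in HFD mice 1, 2 and 3 and 3268, 3262 and 3145 in control mice 1, 2 and 3. All HFD mice were above all control mice, yet the gene did not pass the threshold over all genes tested (log2 difference 0.35, SE 0.10, adjusted p = 0.159 from limma). Pcsk6, for the convertase PACE4, lay on the other side, with 861, 828 and 1037 in the HFD mice and 1256, 1233 and 1284 in the control mice. It did not pass either (log2 difference -0.48, SE 0.12, adjusted p = 0.111 from limma). Pcsk6 did pass without HFD mouse 3 (log2 difference -0.57, adjusted p = 0.0277 from limma), where 342 of 15297 genes passed. It also passed with DESeq2 on the recovered reads (adjusted p = 0.03), which called 3.16% of all genes tested. The ratio of Furin to Pcsk6 was 4.73, 5.09 and 3.86 in the HFD mice and 2.60, 2.64 and 2.45 in the control mice. These genes were named for the largest differences of their list, which have opposite signs, so a ratio that separates the diets follows from the choice. The groups overlapped in the other listed convertases, Pcsk5 (log2 difference 0.19) and Pcsk7 (0.05).

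Lpl lies on the plus strand of chromosome 8 from 68880491 to 68907448 and was the 30th most abundant of the genes tested by mean level. It had 66004, 66199 and 35198 normalized counts in HFD mice 1, 2 and 3 and 40874, 45369.8 and 43022 in control mice 1, 2 and 3. HFD mice 1 and 2 were above every control mouse, and HFD mouse 3 was below every control mouse, so the groups overlapped. Averages were 55800.3 ± 17842 in the HFD and 43089 ± 2249 in the control group (SD, n = 3 each), a log2 difference of 0.32 with an SE of 0.23. The difference was thus within the spread of the HFD mice. Without HFD mouse 3 the log2 difference was 0.62, and without HFD mouse 1 or 2 it was 0.17 or 0.16.

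Vldlr, on chromosome 19 from 27216484 to 27254231, divided the HFD mice in the same way. It had 5071, 5257 and 3457 normalized counts in HFD mice 1, 2 and 3 and 3609, 4520 and 4944 in control mice 1, 2 and 3. HFD mouse 3 had the lowest level of the 6 mice and HFD mouse 2 the highest. The log2 difference was 0.06 (SE 0.18). Its sign depended on single mice, since it was -0.02, -0.05 and -0.07 without HFD mouse 1, HFD mouse 2 and control mouse 1, and 0.26 without HFD mouse 3.

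Some atrial myocyte genes split the HFD mice the opposite way. Relative to the control mean, Myl7 stood at 0.535, 0.466 and 1.01 in HFD mice 1, 2 and 3, and Nppa at 0.597, 0.622 and 1.16. Sln, for the calcium pump regulator sarcolipin, did not show this split, at 0.902, 0.749 and 0.753. Lpl stood at 1.53, 1.54 and 0.817 on the same scale, and Vldlr at 1.16, 1.21 and 0.793. The 5 atrial myocyte markers together summed to 285064 and 285797 normalized counts in HFD mice 1 and 2, 518575 in HFD mouse 3 and 440112 to 480118 in the control mice. Nppa was the largest part of this sum. Bmp10, also in the list, had 1386, 5575 and 7960 in HFD mice 1, 2 and 3 and 2211, 1375 and 5568 in control mice 1, 2 and 3. It alone of the 5 had a log2 difference above 0 (0.62), and its groups overlapped. In bulk tissue, fewer cells of a type and less RNA per cell cannot be told apart. The part of tissue composition in the levels of Lpl and Vldlr was not tested.

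**Figure D3:**
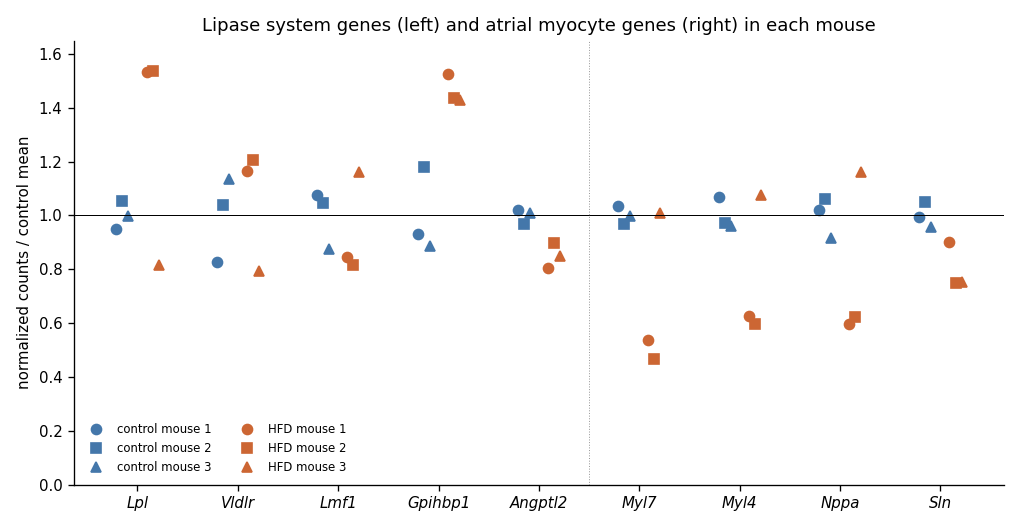
Normalized counts divided by the control mean (vertical axis, from 0; the line marks 1) for 5 members (left of the dotted line) and 4 atrial myocyte genes (right) in the 3 control mice (blue) and the 3 HFD mice (orange). HFD mouse 3 (orange triangle) lies below HFD mice 1 and 2 in Lpl and Vldlr and above them in Lmf1, Myl7, Myl4 and Nppa, whereas the 3 HFD mice lie together in Gpihbp1 and Angptl2.

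Gpihbp1, the endothelial carrier of the lipase, lies on the plus strand of chromosome 15 from 75596628 to 75599481. It had 857, 807 and 803 normalized counts in HFD mice 1, 2 and 3 and 524, 664 and 498 in control mice 1, 2 and 3. The lowest HFD mouse was above the highest control mouse, with means of 822 ± 30.1 and 562 ± 89.0 (SD, n = 3 each) and a log2 difference of 0.56 (SE 0.14). HFD mouse 3, apart in Lpl and Vldlr, was level with the other HFD mice here.

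The level of Gpihbp1 was set beside those of endothelial markers. The 6 capillary endothelial markers summed to 14304 to 15656 normalized counts in the HFD mice and to 11995 to 12460 in the control mice, without overlap. By limma 0 of the 6 passed the threshold, against 0.746% of all genes tested, and 2 had an unadjusted p under 0.05, against 12.2%. All 6 had a log2 difference above 0. Among them Pecam1, for an endothelial adhesion molecule, had a log2 difference of 0.57 (adjusted p = 0.0504 from limma) and Cdh5, for VE-cadherin, one of 0.04 (adjusted p = 0.934). Pecam1 was also the largest part of the sum, with means of 5917 (HFD) and 3989 (control) normalized counts. Taken singly, 2 of the 6, Pecam1 and Tie1, lay higher in every HFD mouse, against 8.86% of all genes tested, and 4 overlapped. Per 100 counts of the 6 markers together, Gpihbp1 had 5.83, 5.15 and 5.61 counts in the HFD mice and 4.37, 5.33 and 4.01 in the control mice, so that the groups overlapped on this scale. Per 100 counts of Pecam1 alone the averages were 14.0 ± 1.08 (HFD) and 14.1 ± 2.72 (control; SD, n = 3 each), again with overlap. Pecam1 had the largest log2 difference of the 6 markers (0.57, beside 0.56 for Gpihbp1). The other markers had smaller differences than Gpihbp1, down to that of Cdh5. Both scales thus depend on Pecam1, and no scale without it was taken, so the overlaps need not hold for other markers. The part of endothelial content in the level of Gpihbp1 was not tested.

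Lmf1, on chromosome 17 from 25579174 to 25662826, had 311, 299.8 and 427 normalized counts in HFD mice 1, 2 and 3 and 395, 385 and 322 in control mice 1, 2 and 3. The groups overlapped, and the log2 difference was -0.10 (SE 0.17). As in Myl7 and Nppa, though not in Sln, HFD mouse 3 was the highest of the HFD mice.

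The 2 relatives of Angptl4 among the members lay on the other side of the comparison. Angptl2, on chromosome 2 from 33216069 to 33247717, had 2166, 2410 and 2284 normalized counts in HFD mice 1, 2 and 3 and 2743, 2604 and 2712 in control mice 1, 2 and 3. Every HFD mouse was below every control mouse, but the difference was small, with a log2 difference of -0.23 (SE 0.10). Angptl1, on chromosome 1 from 156838562 to 156861078, was sparse, with 55.3, 60.2 and 52.2 in the HFD mice and 82.9, 58.9 and 85.3 in the control mice. Control mouse 2 lay among the HFD mice, so the groups overlapped (log2 difference -0.41, SE 0.25). Of the 50-base stretches of the Angptl1 transcripts, 13.3% also occur in transcripts of Gm37802, an overlapping gene on the opposite strand with a mean of 4.02 normalized counts. For Angptl4, Angptl2, Gpihbp1 and Vldlr this share was 0%, and for Lpl it was 1.4%.

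Lipg, on chromosome 18 from 74939322 to 74961263, had at most 2 reads in any library and was not tested. Endothelial lipase transcripts were therefore not detectable at this depth in either group, and no difference is given.

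Of the 7 members tested, 1 passed the threshold, Angptl4, where 0.746% of all genes tested passed in either direction. For 3 of the 7, Angptl4 and Gpihbp1 upward and Angptl2 downward, the diets did not overlap, against 18.0% of all genes tested (8.86% upward and 9.17% downward). As the members were chosen with this comparison known, nothing is read from these counts. The median log2 difference of the 7 was 0.06, beside 0.00492 over all genes tested. A second member passed in 2 settings. Lpl passed without HFD mouse 3, where 342 of 15297 genes passed. Gpihbp1 passed with DESeq2 on the recovered reads, which called 3.16% of all genes tested.

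Levels can be compared between genes only per length, here per kb of the annotated transcript with the longest coding sequence. In the control atria Lpl had 10471 ± 546 normalized counts per kb, followed by Angptl2 (805 ± 21.9), Gpihbp1 (681 ± 108), Vldlr (547 ± 85.6), Lmf1 (198 ± 21.2), Angptl1 (28.5 ± 5.51) and Angptl4 (14.8 ± 8.28; SD, n = 3 each). Angptl2 and Gpihbp1, Gpihbp1 and Vldlr, and Angptl1 and Angptl4 overlapped between neighbours. In the HFD atria the order was Lpl (13560.2 ± 4336), Gpihbp1 (997 ± 36.5), Angptl2 (685 ± 36.5), Vldlr (576 ± 124), Angptl4 (472 ± 76.2), Lmf1 (186 ± 37.8) and Angptl1 (21.1 ± 1.51; SD, n = 3 each), with overlap between Angptl2 and Vldlr and between Vldlr and Angptl4. Angptl4 thus moved from the last place among the 7 to the level of the lipoprotein receptor.

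**Figure D4:**
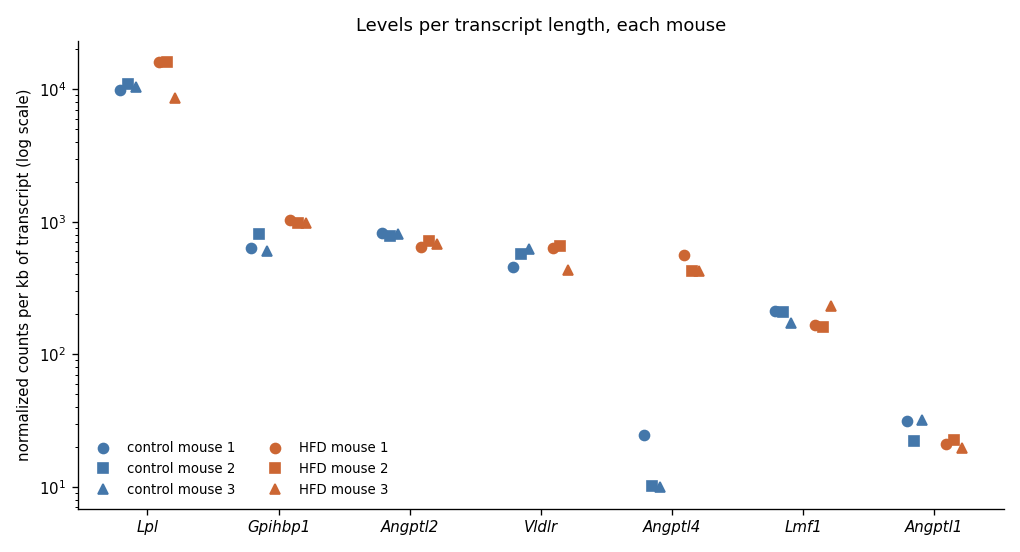
Normalized counts per kb of transcript (vertical axis, log scale) of the 7 tested members in each control mouse (blue) and HFD mouse (orange), ordered by the mean over all mice. Lpl is higher than any other member in every mouse, and Angptl4 lies at 9.91 to 24.4 in the control mice and at the level of Vldlr in the HFD mice.

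Per kb, the Angptl4 transcript amounted to 3.49%, 2.66% and 4.99% of the Lpl transcript in HFD mice 1, 2 and 3 and to 0.245%, 0.0919% and 0.0948% in control mice 1, 2 and 3. The highest share was that of HFD mouse 3, in which Lpl was low. Angptl2 exceeded Angptl4 by a factor of 64.2 ± 26.5 in the control mice and of 1.48 ± 0.283 in the HFD mice (SD, n = 3 each). These ratios depend on the length used. With the union of all annotated exons, an alternative chosen after seeing the data, Angptl4 amounted to 8.84% of Lpl in the HFD mice and 0.343% in the control mice, and Angptl2 stood at 0.843 of Angptl4 in the HFD mice, so the order of the latter pair was not settled. By that length the order in the HFD mice was Lpl (5325), Vldlr (456), Angptl4 (441), Angptl2 (364), Gpihbp1 (322), Lmf1 (25.5) and Angptl1 (19.7). In the control mice it was Lpl (4112), Vldlr (433), Angptl2 (427), Gpihbp1 (220.1), Lmf1 (27.1), Angptl1 (26.6) and Angptl4 (13.8). Lpl thus stayed first in both groups and Angptl4 last in the control mice, while the places between Vldlr, Angptl2, Gpihbp1 and Angptl4 depended on the length.

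The remaining genes of the pathway were taken from 6 lists of 60 genes beside the members, of which 43 had enough counts to be tested. Of these 1 passed the threshold upward and 0 downward, against 0.484% and 0.262% of all genes tested. Their log2 differences had a median of 0.05, with 22 above and 21 below 0. At an unadjusted p under 0.05 there were 8 of 43, against 12.2% of all genes tested. The gene that passed was Lipe, for hormone-sensitive lipase, which acts on stored lipid inside the cell (log2 difference 1.56, SE 0.22, adjusted p = 0.0171 from limma). It had 3163, 2219 and 1862 normalized counts in HFD mice 1, 2 and 3 and 1091, 725 and 643 in control mice 1, 2 and 3. The groups did not overlap, but the adjusted p from limma was 0.052, 0.0824 and 0.081 without HFD mouse 2, control mouse 2 and control mouse 3, and 0.177 with no variance trend. Pla1a, for a phospholipase of the same family, had a log2 difference of 0.38 (adjusted p = 0.56 from limma). Lipe is also an adipocyte gene. The 6 white adipocyte markers, of which 0 passed and 0 were at 0 in any library, summed to 1257 to 3718 normalized counts in the HFD mice and to 568 to 2747 in the control mice. The 4 brown adipocyte markers summed to 616 to 1283 and to 187 to 330. Of these 2 of the 3 tested passed, Ucp1 and Cidea, against 0.746% of all genes tested, and Elovl3 was at 0 in control mice 2 and 3. The part of these cells in the level of Lipe was not tested.

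**Figure D5:**
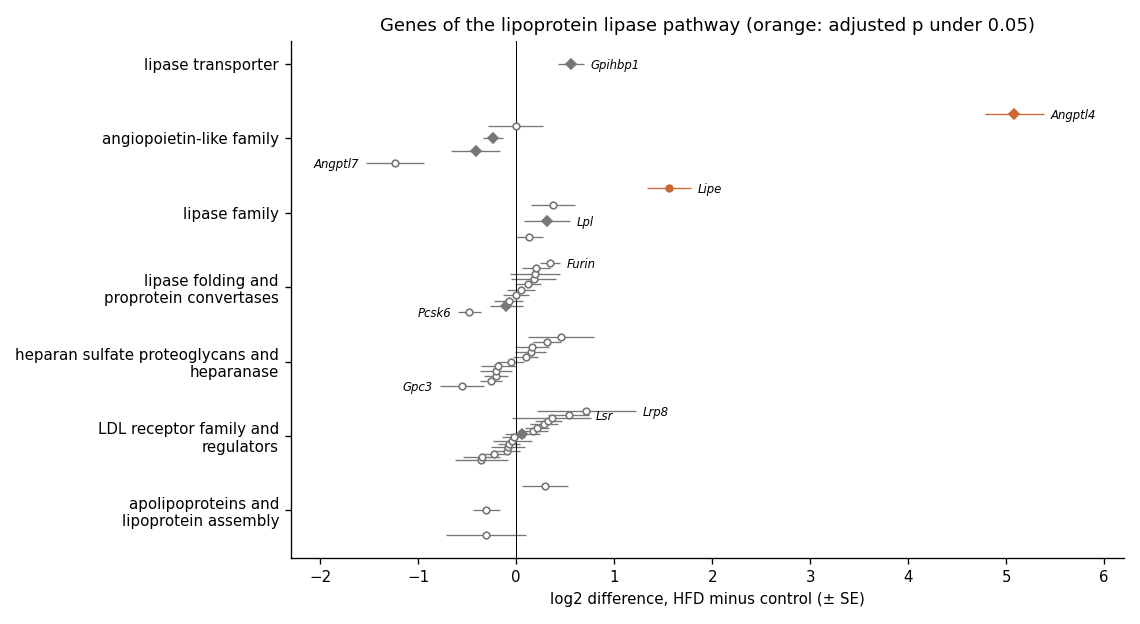
Log2 difference, HFD minus control, with its standard error (horizontal axis) for the tested genes of the 6 pathway lists and of Gpihbp1, the lipase transporter (top), with diamonds for members and circles for other genes. Angptl4 and Lipe (orange) passed an adjusted p under 0.05, and the other genes lie between -1.23 (Angptl7) and 0.72 (Lrp8).

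The angiopoietin-like family had 2 tested genes beside the members. Angptl7, known from the cornea and other connective tissues, had 37.2, 69.3 and 50 normalized counts in HFD mice 1, 2 and 3 and 151, 131 and 87.4 in control mice 1, 2 and 3. All HFD mice were below all control mice, but the gene did not pass (log2 difference -1.23, SE 0.30, adjusted p = 0.0963 from limma). It passed only with DESeq2 on the recovered reads, which called 3.16% of all genes tested. It lies within Mtor on the opposite strand, without overlap of exons. Angptl6, whose exons overlap a gene on the opposite strand, had a log2 difference of -0.00322. Angptl8, a relative made in liver and fat, was nearly absent, with at most 2.27 normalized counts in the HFD mice and 26.7 in control mouse 2.

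Of the chaperones and convertases, 9 genes beside Lmf1 were tested and 0 passed by limma (2 at an unadjusted p under 0.05, Pcsk6 and Furin). Calr, for the chaperone calreticulin, had 4450.2, 5100.1 and 9440 normalized counts in HFD mice 1, 2 and 3, against 4989.7 to 5613 in the control mice, so HFD mouse 3 again stood apart. Canx, for calnexin, had a log2 difference of 0.12 (adjusted p = 0.762 from limma). Of the 11 heparan sulfate proteoglycans and heparanase, which hold or release the lipase at cell surfaces, 0 passed by limma (2 at an unadjusted p under 0.05), and the largest differences were those of Gpc3 (-0.55, adjusted p = 0.365) and Hpse (0.46, adjusted p = 0.639), both from limma. The most abundant were Gpc1, for glypican 1 (log2 difference -0.20, adjusted p = 0.557 from limma), and Hspg2, for perlecan (0.15, adjusted p = 0.762).

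Of the LDL receptor family and its regulators, 15 genes beside Vldlr were tested and 0 passed by limma (2 at an unadjusted p under 0.05). Lrp8, the closest relative of Vldlr, varied widely, with 64.3, 192 and 336 normalized counts in HFD mice 1, 2 and 3 and 143, 65 and 99.5 in control mice 1, 2 and 3 (adjusted p = 0.626 from limma). Lsr, for the lipolysis-stimulated lipoprotein receptor, was above every control mouse in every HFD mouse without passing (log2 difference 0.54, SE 0.21, adjusted p = 0.335 from limma). With a mean of 143 normalized counts, Lsr shares exon positions with Gm17077 (mean 35.9) and Gm4673 (mean 52.8) on the opposite strand. Lrp1, the most abundant of them, had a log2 difference of 0.29 (adjusted p = 0.452 from limma). Of the apolipoproteins and assembly genes, 3 of 11 were tested and 0 passed by limma (0 at an unadjusted p under 0.05). Apoe, the most abundant, was 13047 to 15149 in the HFD mice and 15415 to 20601 in the control mice (log2 difference -0.30, adjusted p = 0.423 from limma). Apoc1 and Mttp, the latter for the protein that loads lipid onto lipoproteins, had log2 differences of -0.31 and 0.30 (adjusted p = 0.822 and 0.668 from limma). The exons of Mttp (mean 106 normalized counts) overlap those of Trmt10a (mean 43.9) on the opposite strand. By DESeq2 and by edgeR on the recovered reads 0 genes passed in the proteoglycan, receptor and apolipoprotein lists. Apoc2, for the cofactor that activates the lipase, reached at most 5.02 normalized counts, Apoc3, for an inhibitor, at most 6.84, and Apoa5 had no read in any library.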

How the data were processed

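Libraries were single-end and directional. The authors aligned the reads to GRCm38 with STAR, kept uniquely mapped reads and assigned them to Ensembl genes with Salmon. Positions, lengths and sequences were read here from GENCODE M21 on the same assembly, by gene identifier. The use of strand in counting was not given in the sources used here. The deposited signal is the read count of a gene divided by 1 DESeq2 size factor per sample. In each sample 100% of values were whole multiples of the smallest (tolerance 0.01), so reads were recovered; in HFD mouse 1 a read was worth 1.00 normalized count. The authors' own log2 fold changes, p-values and scores (the Wald statistic and ranking metric) were deposited beside the values and were not used. A row without a gene name held 0 reads.

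Diets were tested on log2(normalized count + 1), a scale that understates the change of low genes, using limma 3.58.1 (R 4.3.3, variance trend). The 15275 genes averaging 10 or more entered, with Benjamini-Hochberg adjustment over all of them and a threshold of 0.05. All 6 samples entered, without covariates. Alternatives were quantile normalization, mitochondrial genes left out, no variance trend, other filters and pseudocount, each mouse left out, the replicate number as a block, and edgeR 4.0.16 or DESeq2 1.42.0 on the recovered reads. Nothing states how the samples of a group were separated, so the p-values measure the spread between these samples. Members and lists were chosen with earlier results of these data known. Genes named are the members, in each list those past the threshold, the 2 with the largest difference and the 2 with the highest mean, and the 5 genes most like Angptl4. Cdh5, Pecam1, Tie1, Ucp1, Cidea, Elovl3, Dio2, Lep, Cfd, Nppa, Myl7, Myl4, Sln, Bmp10, Itgam, Alb, Ttr, Pcsk5, Pcsk7, Angptl6, Angptl8, Apoa5, Apoc2 and Apoc3 were named outside this rule. Symbols matched 42462 of the 43432 identifiers. The test was checked on simulated data. A gene of the lists is not reported here.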

Additional observations from a re-analysis of the deposited data

How the results depend on the processing

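With 3 mice per group, counts of calls moved with the treatment of the variance and with single libraries. With no trend in the variance, limma called 0 genes (1717 at an unadjusted p under 0.05), 0 members and 0 other pathway genes. DESeq2 on the recovered reads called 483 genes, 2 members and 3 other pathway genes, and edgeR 87, 1 and 1, beside 114, 1 and 1 in the main comparison. Leaving out 1 mouse at a time gave 14 to 342 genes, 1 to 2 members and 0 to 2 other pathway genes past the threshold in limma. The most genes came without HFD mouse 3, and the 3 lowest counts, 14, 19 and 24, came without control mouse 2, control mouse 3 and HFD mouse 2, the fits in which Lipe also lost its call. The cause of these shifts was not tested. Angptl4 kept its direction in all 15 alternatives and was called in 14, all but that with no variance trend. Vldlr changed sign in 3. The other 5 tested members kept their sign in all 15. With the replicate number as a block 157 genes, 1 member and 1 other pathway gene were called. The deviations of same-numbered mice correlated at 0.116, -0.027 and -0.00387, and those of differently numbered mice at -0.147 to 0.16. With so few mice these values cannot settle whether the numbers pair them. Genes of few reads, such as Lipg and Apoc2, are limited by depth.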

Other observations

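The 5 tested genes whose log2 levels over the 6 mice were most like those of Angptl4 were Saraf (Pearson r = 0.996), Il4ra (0.994), Slc25a22 (0.994), Mgll (0.994) and Rbp7 (0.993), each over 6 mice of the same libraries, and 107 genes had an r over 0.95. These values largely restate the difference between the diets, and no p is given. Mgll, for monoglyceride lipase, which completes the breakdown of triglycerides, had 2875, 2835 and 2867 normalized counts in HFD mice 1, 2 and 3 and 2113, 1779 and 1781 in control mice 1, 2 and 3. As in Angptl4, control mouse 1 was the highest control. Slc25a22, for a mitochondrial glutamate carrier, had 1692, 1635 and 1633 in the HFD mice and 709, 669 and 603 in the control mice. Rbp7, for a retinol-binding protein of endothelium and fat, had 192, 155 and 170.4 in the HFD mice and 73.9, 58.9 and 49.2 in the control mice. None of the 3 showed HFD mouse 3 apart from the other HFD mice. They were chosen by their likeness to Angptl4 over these same mice. Likenesses in single mice, also that in control mouse 1, therefore follow from the choice. Among the members, Gpihbp1 was the most like Angptl4 (r = 0.875) and Angptl2 the most opposed (r = -0.902), while Lpl had an r of 0.4565 and Vldlr one of 0.0619.

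The marker lists of other cell types of the atrium were compared by their summed levels. Fibroblast markers ranged from 31294 to 32698 normalized counts in the HFD mice and from 31128 to 36489 in the control mice, mesothelial markers from 1101 to 1733 and from 1172 to 1787, and ventricular markers from 4326 to 6415 and from 4262 to 13770.5, the last value that of control mouse 2. Macrophage markers ranged from 3773 to 4010 and from 3152 to 3567. Of the 5, 1 passed the threshold, Itgam (log2 difference 1.18, adjusted p = 0.0106 from limma), against 0.746% of all genes tested. The others did not pass, and 1 of them had a log2 difference below 0. Hepatocyte markers were low, with sums of 13.6 to 40.2 and 5.48 to 13.1, and Alb was at 0 in 5 of the 6 libraries. In the HFD mice most of the sum was Ttr. It had 35.2, 29.6 and 10.2 in HFD mice 1, 2 and 3 and 7.84, 2.05 and 10.9 in control mice 1, 2 and 3. The groups overlapped in Ttr, and it did not pass (log2 difference 1.76, adjusted p = 0.362 from limma).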
